A study of Mus musculus with 6 samples.

Results

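The genes described here make fatty acids, store them as triglyceride and release them again: Acaca, Fasn, Scd1, Scd2, Dgat1, Dgat2, Plin2, Pnpla2, Lipe and Mgll. They were taken by symbol, without regard to their values, and are 10 of the 57180 genes in the deposited count table. RNA was sequenced from macrophages of mouse white adipose tissue, selected by F4/80 and CD11b per the design text. There were 3 HFD+MGIG libraries, from wild-type mice on a high-fat diet (HFD) given magnesium isoglycyrrhizinate (MGIG), and 3 HFD libraries, from wild-type mice on the same diet without it. MGIG is the magnesium salt of an isomer of glycyrrhizic acid, a licorice compound. The labels give no dose, duration, strain, sex or age, and do not say whether the libraries of a group came from separate animals, so p-values measure only the spread between these libraries.

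In de novo synthesis, acetyl-CoA carboxylase makes malonyl-CoA, fatty acid synthase builds palmitate from it, and stearoyl-CoA desaturases introduce a double bond. Acyltransferases then join fatty acids to glycerol, and the triglyceride is kept in droplets coated by perilipins. Lipolysis runs in sequence through adipose triglyceride lipase, hormone-sensitive lipase and monoacylglycerol lipase, and in fat cells it is switched on by catecholamines. Macrophages of obese fat also take up lipid and hold droplets, while the enzymes of synthesis and lipolysis are most abundant in adipocytes. The series title names lipid catabolism and catecholamine pathways as the subject of the study.

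The promoters of Plin2, Mgll and Fasn are shown as examples of the droplet, lipase and synthesis genes: Plin2 was the most abundant of the 10 and was not called in the fit across all genes, Mgll was lower in HFD+MGIG there, and Fasn was the least abundant in HFD+MGIG per kb. Each line runs from 250 bases before to 20 bases after a RefSeq transcription start (GRCm38.p6), on the gene's strand. Plin2 is at chr4:86670040-86670309 on the minus strand, Mgll at chr6:88724162-88724431 on the plus strand, and Fasn at chr11:120824528-120824797 on the minus strand. Capitals mark CACGTG (an E-box) and CCAAT, each read on both strands.
Plin2: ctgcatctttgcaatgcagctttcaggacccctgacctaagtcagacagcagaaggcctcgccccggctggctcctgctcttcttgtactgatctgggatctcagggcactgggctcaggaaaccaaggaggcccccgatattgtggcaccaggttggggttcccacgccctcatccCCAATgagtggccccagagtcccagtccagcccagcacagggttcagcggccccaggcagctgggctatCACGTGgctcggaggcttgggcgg
Mgll: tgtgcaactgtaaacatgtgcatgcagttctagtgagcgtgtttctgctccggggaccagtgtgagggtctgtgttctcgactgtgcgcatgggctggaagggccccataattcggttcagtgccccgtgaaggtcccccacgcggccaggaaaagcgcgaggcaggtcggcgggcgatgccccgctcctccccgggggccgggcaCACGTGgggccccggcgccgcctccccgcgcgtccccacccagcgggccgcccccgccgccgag
Fasn: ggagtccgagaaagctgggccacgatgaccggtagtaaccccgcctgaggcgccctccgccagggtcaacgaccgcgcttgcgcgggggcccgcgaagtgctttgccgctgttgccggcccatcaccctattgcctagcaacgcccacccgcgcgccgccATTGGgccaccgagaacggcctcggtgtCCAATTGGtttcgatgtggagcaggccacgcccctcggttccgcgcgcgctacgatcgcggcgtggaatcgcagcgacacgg
The E-box began at position −4 from the start in Plin2 and at −44 in Mgll, and Plin2 also held CCAAT at −73. Fasn held CCAAT at −62, and on the opposite strand at −90 and at −59, the last overlapping the one at −62. The promoter table held 6 of the 10 genes (Fasn, Acaca, Pnpla2, Lipe, Mgll and Plin2) in 8 windows of 250 bases before to 50 after the start. Of these, 3 genes had CACGTG (Plin2, Mgll and Lipe, the last at −155) and 2 had CCAAT, against 7.15% and 37.4% of all 32851 windows. The letters TCACNCCAC, a site form bound by sterol regulatory element binding proteins, occurred in 0 of the 6 genes and in 1.24% of all windows. These matches describe letters only. Scd1, Scd2, Dgat1 and Dgat2 were not in the table.

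Total counts were 2214367 to 4904167 in HFD+MGIG and 14437531 to 16740374 in HFD. Olfactory, vomeronasal and taste receptor, keratin-associated and beta-defensin genes, 1598 in all, were taken here as silent families. They took 2.94% to 6.43% of the counts in HFD+MGIG, against 0.0624% to 0.28% in HFD. The 90th percentile of their counts per kb in a library, multiplied by a gene's exon length, is called the background bound below. The sorting markers were present: Adgre1, which encodes F4/80, averaged 283 ± 132 CPM (counts scaled to the library total) in HFD+MGIG and 515 ± 41.2 CPM in HFD, and Itgam, which encodes CD11b, averaged 117 ± 68.4 and 245 ± 62.3 CPM (SD, n = 3 each). Exons of Itgam overlap those of a predicted gene on the same strand over 68.7% of their length. Of 14 macrophage markers 0 passed the test by edgeR in the fit across all genes (2 lower at an unadjusted p under 0.05), 4 were lower by DESeq2 and 7 by limma voom. Their summed level was 18928, 7523 and 16130 CPM in HFD+MGIG 1, 2 and 3, against 17157 to 19503 CPM in HFD. Lyz2 was the largest part of this sum, at 6709 ± 2597 CPM in HFD+MGIG and 7881 ± 485 CPM in HFD. Its log2 fold change was −0.51, against a median of −0.72 for the 14 markers, −1.13 for Adgre1 and −1.32 for Itgam. Scaling by single markers was not tested. HFD+MGIG 2 was the lowest of its group for 14 of these 14 markers.

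Of the 10 lipid genes 8 were lower and 1 was higher in HFD+MGIG by edgeR's quasi-likelihood test adjusted over all 23053 genes tested (adjusted p under 0.05). The same test called 17.8% of all genes lower and 43.0% higher, and it called 26.8% of protein-coding genes outside the receptor and keratin families lower and 21.0% higher. The lower genes were Scd1, Scd2, Fasn, Dgat1, Dgat2, Pnpla2, Lipe and Mgll, the higher one was Acaca, and Plin2 did not pass. Their median log2 fold change was −1.20, against 0.38 for all genes tested and −0.52 for those protein-coding genes. All 10 passed the filter on low counts.

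The levels differed in how far they stood above background. In the HFD+MGIG libraries 3 genes (Scd1, Pnpla2 and Plin2) exceeded the background bound in every library, 3 (Dgat1, Lipe and Mgll) in 2 libraries, and 4 (Scd2, Fasn, Acaca and Dgat2) in none. Every HFD library exceeded it for every one of the 10. The fit was therefore repeated on 2606 protein-coding genes with at least 2 exon blocks whose mean bound was at most 0.25 of their mean level, with scaling factors of their own. The median gene of that set was at −0.91 (log2 fold change) in the fit across all genes and at 0.03 on the scale of the set. That set, called background-limited, holds Scd1, Mgll, Pnpla2 and Plin2. Mgll entered it only through its HFD level, since its bound averaged 32.5 CPM against a level of 67.9 CPM in HFD+MGIG, so no value of Mgll in that set is used. Of the other 3, Scd1 was called lower, where 6.25% of the set was called lower and 4.45% higher. When libraries were instead scaled by their summed macrophage marker counts, a choice made after seeing the data, 3 of the 10 genes were lower (Scd1, Mgll and Pnpla2; 3.45% of all genes) and 1 was higher (Acaca; 42.6%). On that scale the median log2 fold change over all genes was 1.36, against 0.38 with TMM, so fold changes on it lie higher as a whole.

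**Figure D1:**
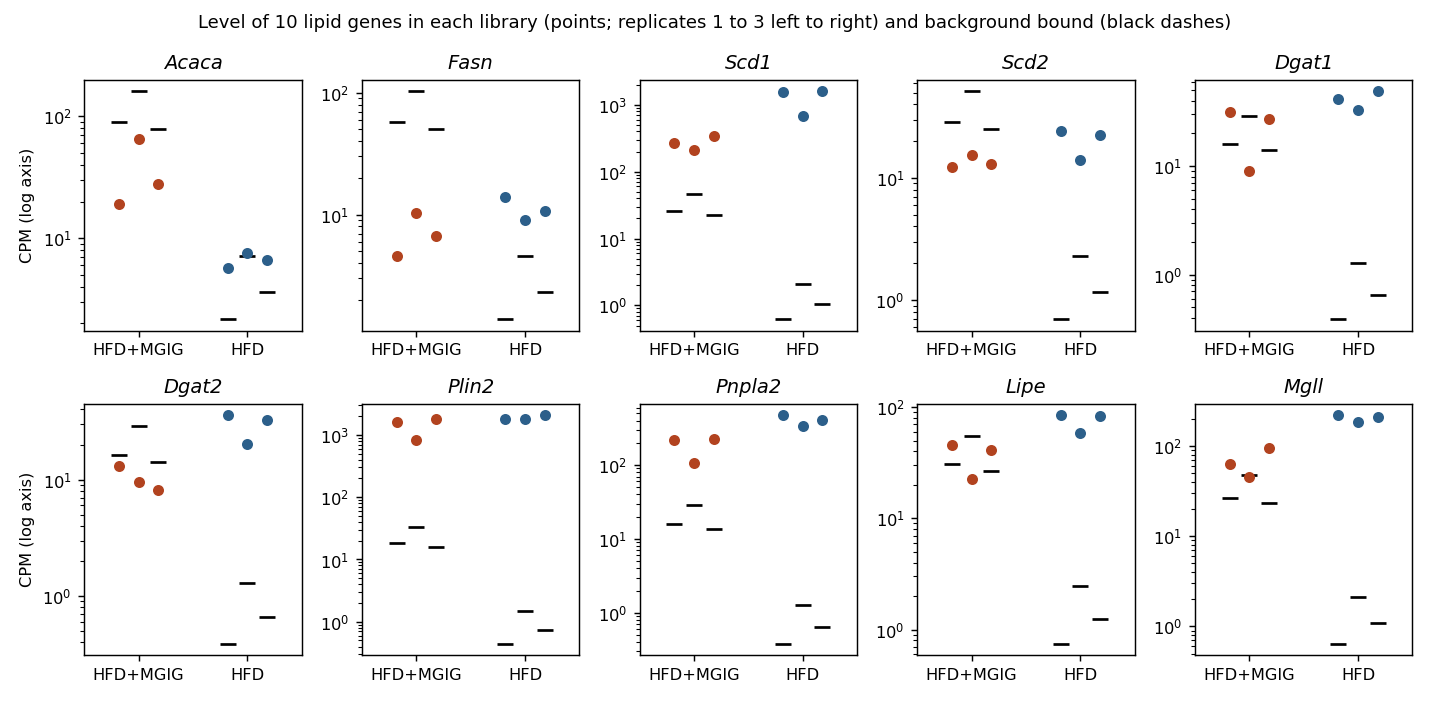
Level of each gene in CPM (log axis, a separate range in each panel) in the 3 HFD+MGIG and 3 HFD libraries, with replicates 1 to 3 from left to right; black dashes are the background bound of that library. HFD+MGIG points of Scd2, Fasn, Acaca and Dgat2 lie below their dashes, while those of Plin2, Scd1 and Pnpla2 lie above.

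Among the synthesis genes, Scd1 was called lower and Acaca higher in the fit across all genes, although each HFD+MGIG level of Acaca lay below its bound. Scd1, the main stearoyl-CoA desaturase of adipose tissue, lies on mm10 at chr19:44394455-44407879 (minus strand). It had 267, 209 and 337 CPM in HFD+MGIG 1, 2 and 3, against 1526, 675 and 1598 CPM in HFD 1, 2 and 3. Every HFD+MGIG library was below every HFD library, and HFD 2 was less than the other HFD libraries. The log2 fold change was −2.50 ± 0.531 (SE, adjusted p = 0.00153 by edgeR), the largest decrease of the 10. It was −1.50 ± 0.325 among background-limited genes (adjusted p = 0.0248 by edgeR) and −1.74 ± 0.367 with macrophage marker scaling (adjusted p = 0.00954 by edgeR). Among background-limited genes the threshold was missed when HFD 1 or 3, or HFD+MGIG 1 or 3, was left out, with adjusted p between 0.0675 and 0.0916 by edgeR and log2 fold changes between −1.31 and −1.57.

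Adipocyte markers moved with Scd1. Of 14 markers 11 were lower in HFD+MGIG and 0 higher, and their summed level was 402 to 621 CPM in HFD+MGIG, against 839.8 to 1994 CPM in HFD. The marker Adrb3 was at 0 in 1 library, and Adipoq, the adipokine adiponectin, averaged 20.6 ± 5.87 CPM in HFD+MGIG and 68.6 ± 28.6 CPM in HFD (SD, n = 3 each). HFD 2, lowest in Scd1 among HFD libraries, was also the lowest of them for 12 of the 14 markers. Per 100 adipocyte marker counts, Scd1 had 57.2, 52 and 54.3 counts in HFD+MGIG, against 76.6, 80.4 and 86.8 in HFD. These ratios did not overlap and varied less between libraries than the CPM did, with an exact permutation p of 0.1 (two-sided), the smallest that 3 against 3 allows, and 0.214 after adjustment over the 30 ratios computed. Car3, a carbonic anhydrase of fat cells, was the most abundant of these markers, at 219 ± 50 CPM in HFD+MGIG and 832 ± 312 CPM in HFD. Per 100 counts of endothelial markers Scd1 had 32.1 ± 4.92 in HFD+MGIG and 47.4 ± 21.5 in HFD, which overlapped (exact permutation p = 0.4). In bulk RNA fewer cells of a type and less RNA per cell cannot be told apart, and the part of adipocyte RNA in the Scd1 difference was not tested.

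**Figure D2:**
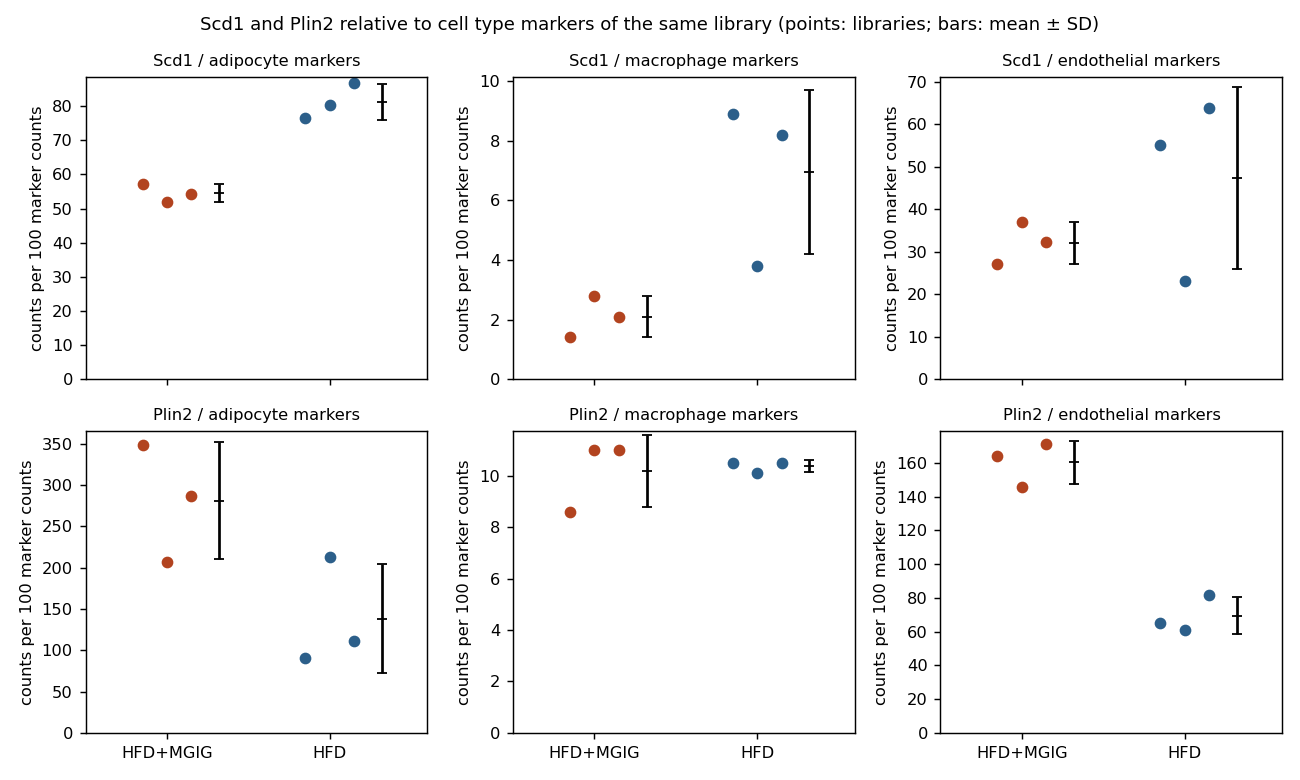
Counts of Scd1 (top) and Plin2 (bottom) per 100 counts of adipocyte, macrophage or endothelial markers in the same library; points are libraries and bars the mean ± SD of 3. Scd1 per adipocyte marker is 54.5 ± 2.62 in HFD+MGIG and 81.3 ± 5.19 in HFD, and Plin2 per macrophage marker is 10.2 ± 1.42 and 10.4 ± 0.265.

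Scd2, a second desaturase gene that lies beside Scd1 (chr19:44293674-44306864, plus strand), was far less abundant. It had 12.3, 15.4 and 13.1 CPM in HFD+MGIG, against 24.4, 13.9 and 22.3 CPM in HFD, and the groups overlapped because of HFD 2. The log2 fold change was −0.89 ± 0.299 (adjusted p = 0.0221 by edgeR), and 0.02 ± 0.545 with macrophage marker scaling (adjusted p = 0.985 by edgeR). The sign turned with the scale, by about as much as the median of all genes moved. No HFD+MGIG library exceeded its bound, which averaged 35 CPM. The genes of the family are similar in sequence, so reads could be split among them: Scd3 and Scd4 were higher in HFD+MGIG but averaged only 5.32 ± 5.29 and 4.46 ± 3.24 CPM there, against 0.271 ± 0.365 and 0.104 ± 0.0305 CPM in HFD, with mean bounds of 22.7 and 24.1 CPM in HFD+MGIG.

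Fasn and Acaca, the enzymes that build the chain, were both scarce. Fasn, fatty acid synthase (chr11:120805846-120824547, minus strand), had 4.58, 10.4 and 6.73 CPM in HFD+MGIG, against 14, 9 and 10.7 CPM in HFD, from only 19 to 33 counts in HFD+MGIG. The groups overlapped. Its log2 fold change was −1.0 ± 0.375 (adjusted p = 0.0354 by edgeR) and 0.05 ± 0.739 with macrophage marker scaling (adjusted p = 0.966 by edgeR), a move again about that of the median of all genes. Acaca, acetyl-CoA carboxylase alpha (chr11:84129672-84401651, plus strand), had 19, 64.6 and 28.1 CPM in HFD+MGIG, against 5.67, 7.62 and 6.65 CPM in HFD. Every HFD+MGIG library was above every HFD library, with a log2 fold change of 2.07 ± 0.384 (adjusted p = 0.00063 by edgeR). HFD+MGIG 2, the shallowest library with the largest share of silent-family counts, was the highest. The raw counts behind these levels were 79, 143 and 138 in HFD+MGIG, against 95, 110 and 107 in HFD. Each HFD+MGIG level was below its bound, which averaged 109 CPM, and with the median background subtracted the log2 fold change was 1.34 ± 1.34 and did not pass (adjusted p = 0.482 by edgeR). The part of the background in the Acaca difference was not tested beyond this.

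For triglyceride storage, both acyltransferases of the final step were lower and the droplet protein was not called. Dgat1 (chr15:76502015-76511953, minus strand) had 31.8, 9.03 and 27.3 CPM in HFD+MGIG, against 41.7, 33.1 and 49.1 CPM in HFD. The groups did not overlap, HFD+MGIG 2 stood lowest, and the log2 fold change was −1.09 ± 0.424 (adjusted p = 0.041 by edgeR). Dgat2 (chr7:99153658-99182719, minus strand), from an unrelated enzyme family, had 13, 9.48 and 8.16 CPM in HFD+MGIG, against 35.5, 20.4 and 32.6 CPM in HFD. These groups were further apart, and the log2 fold change was −1.81 ± 0.334 (adjusted p = 0.000615 by edgeR), although every HFD+MGIG level lay below its bound, which averaged 19.7 CPM. With macrophage marker scaling neither passed: Dgat1 was at −0.56 ± 0.309 and Dgat2 at −1.04 ± 0.479 (adjusted p = 0.182 and 0.116 by edgeR). With the 90th percentile background subtracted Dgat1 was at −1.06 ± 1.22 and did not pass (adjusted p = 0.529 by edgeR).

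Plin2, the perilipin that coats droplets in macrophages and most cells other than adipocytes (chr4:86648386-86670060, minus strand), was the most abundant gene. It had 1624, 830 and 1781 CPM in HFD+MGIG, against 1807, 1787 and 2050 CPM in HFD. The groups did not overlap, but HFD+MGIG 1 and 3 lay just under HFD 2, and HFD+MGIG 2 stood apart. The log2 fold change was −0.69 ± 0.529 (adjusted p = 0.26 by edgeR), 0.25 ± 0.151 among background-limited genes (adjusted p = 0.346 by edgeR) and −0.02 ± 0.139 with macrophage marker scaling (adjusted p = 0.922 by edgeR), and it passed as higher, at 0.70 ± 0.175, with the 90th percentile background subtracted (adjusted p = 0.0161 by edgeR). The sign therefore depends on the scale. Per 100 macrophage marker counts Plin2 had 8.58, 11 and 11 counts in HFD+MGIG, against 10.5, 10.1 and 10.5 in HFD (exact permutation p = 1, adjusted 1 over 30 ratios). HFD+MGIG 2, low in Plin2 by CPM, was not low on this measure.

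Across the table, 5 genes had profiles most like that of Plin2 over the 6 libraries. Among 9895 protein-coding genes with at least 10 CPM on average, Rab3gap2, Gzf1, Ddit3, Eif4a1 and Vta1 differed least from it, by 0.061 to 0.0694 (root mean square of centred log2 CPM). Each was lowest in HFD+MGIG 2, as Plin2 was. Of the other lipid genes with that level, Lipe was the nearest at 0.339 and Acaca the farthest at 1.6 on this measure, with ranks of 4088 and 9205 among those genes.

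**Figure D3:**
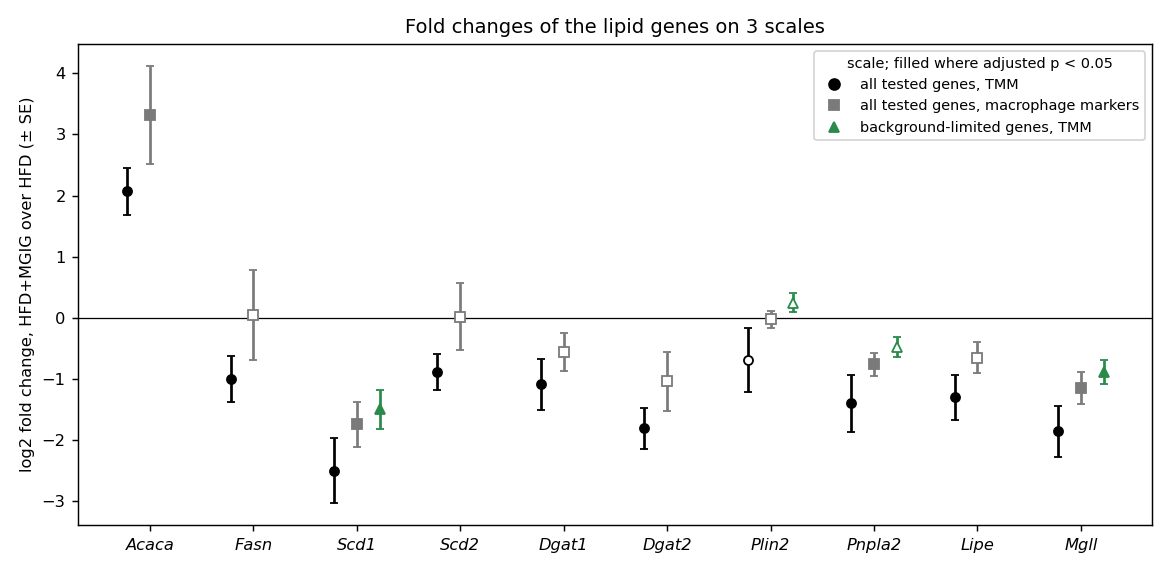
Log2 fold change of each gene, HFD+MGIG over HFD (± SE), in the fit across all genes (circles), with macrophage marker scaling (squares) and among background-limited genes (triangles, 4 genes); filled symbols have an adjusted p under 0.05. Scd1 is filled and below 0 on all 3 scales, Mgll entered the background-limited set only through its HFD level, and Acaca is the gene above 0 with filled symbols.

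All 3 lipases of the lipolysis sequence were lower in the fit across all genes, and Pnpla2 and Mgll also with macrophage marker scaling. Pnpla2, adipose triglyceride lipase (chr7:141455198-141460743, plus strand), had 221, 106 and 225 CPM in HFD+MGIG, against 469, 339 and 406 CPM in HFD. The groups were well apart, with a log2 fold change of −1.40 ± 0.471 (adjusted p = 0.0222 by edgeR). With the 90th percentile background subtracted it was −0.19 ± 0.289 and did not pass (adjusted p = 0.642 by edgeR). With the median background subtracted it was −0.65 ± 0.313 and did not pass (adjusted p = 0.17 by edgeR). It was −0.48 ± 0.158 among background-limited genes, where it missed the threshold by edgeR (adjusted p = 0.0936) and passed by DESeq2 (adjusted p = 0.0439), and −0.76 ± 0.19 with macrophage marker scaling (adjusted p = 0.014 by edgeR). Per 100 macrophage marker counts it had 1.32 ± 0.132 counts in HFD+MGIG and 2.24 ± 0.435 in HFD (SD, n = 3 each; exact permutation p = 0.1, adjusted 0.214).

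Lipe, hormone-sensitive lipase (chr7:25379527-25398710, minus strand), had 46, 22.6 and 41.2 CPM in HFD+MGIG, against 84.1, 58.8 and 82.8 CPM in HFD. No libraries overlapped, and the log2 fold change was −1.30 ± 0.369 (adjusted p = 0.00929 by edgeR), or −0.65 ± 0.25 with macrophage marker scaling (adjusted p = 0.0683 by edgeR). With the 90th percentile background subtracted it was −1.91 ± 1.29 and did not pass (adjusted p = 0.279 by edgeR). With the median background subtracted it was −0.96 ± 0.458 and did not pass (adjusted p = 0.165 by edgeR). An antisense gene, 4732471J01Rik, overlaps 15.6% of the Lipe exons and had 20.6 ± 6.04 CPM in HFD+MGIG and 3.97 ± 1.23 CPM in HFD. The strand setting of the counts is not given in the sources used here, so Lipe reads and antisense reads cannot be told apart.

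Mgll, monoacylglycerol lipase, which also degrades the endocannabinoid 2-arachidonoylglycerol (chr6:88724412-88828360, plus strand), had 63.1, 45.6 and 95 CPM in HFD+MGIG, against 217, 183 and 210 CPM in HFD. Every HFD+MGIG library was far below every HFD library. The log2 fold change was −1.86 ± 0.416 (adjusted p = 0.00212 by edgeR) and −1.15 ± 0.262 with macrophage marker scaling (adjusted p = 0.0109 by edgeR). With the 90th percentile background subtracted it was −1.50 ± 1.41 and did not pass (adjusted p = 0.439 by edgeR). With the median background subtracted it was −1.24 ± 0.319 and passed (adjusted p = 0.0215 by edgeR). Gm26588, an antisense gene over 3.29% of its exons, had 5.78 ± 4.85 CPM in HFD+MGIG and 0.639 ± 0.133 CPM in HFD.

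Endothelial markers, like the adipocyte markers above, were lower in HFD+MGIG, as Mgll was. Of 12 markers 12 were lower in HFD+MGIG and 0 higher, none was at 0 in any library, and their summed level was 567 to 1042 CPM in HFD+MGIG, against 2504 to 2929 CPM in HFD; Cdh5, the endothelial cadherin, averaged 21 ± 7.53 CPM in HFD+MGIG and 98.9 ± 10.6 CPM in HFD. Per 100 endothelial marker counts Mgll had 6.38, 8.04 and 9.12 counts in HFD+MGIG, against 7.86, 6.24 and 8.37 in HFD, and these overlapped (exact permutation p = 0.7, adjusted over the 30 ratios 0.84). Its ratios to adipocyte markers overlapped as well, at 13.4 ± 1.98 counts per 100 in HFD+MGIG and 14.7 ± 6.14 in HFD (exact permutation p = 0.9). HFD 2 had 21.8 on this measure, against 10.9 and 11.4 in HFD 1 and 3. Among the HFD libraries HFD 2 had the lowest Mgll level, 183 CPM, and the highest endothelial sum, 2929 CPM. Per 100 macrophage marker counts Mgll had 0.51 ± 0.153 in HFD+MGIG and 1.12 ± 0.126 in HFD, without overlap (exact permutation p = 0.1, adjusted 0.214). Ratios of Dgat2 to endothelial and to adipocyte markers also overlapped (exact permutation p = 0.5 and 0.9). Pnpla2 had 20.8 ± 1.97 counts per 100 endothelial marker counts in HFD+MGIG and 14.9 ± 2.92 in HFD (exact permutation p = 0.1, adjusted 0.214). Per 100 adipocyte marker counts Pnpla2 had 36.6 ± 10.6 in HFD+MGIG and 28.6 ± 10.2 in HFD, which overlapped (exact permutation p = 0.4). Of 10 fibroblast markers 7 were lower and 0 higher, with sums of 1341 to 2041 CPM in HFD+MGIG and 2671 to 4118 CPM in HFD. Mammary and epithelial markers were scarce, at 27.5 to 105 CPM in HFD+MGIG and 27.1 to 158 CPM in HFD, with 2 of 10 tested lower and 3 higher. The part of other cell types in the Mgll difference was not tested.

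Counted by separation alone, 7 of the 10 genes had every HFD+MGIG library below every HFD library, 1 had every one above, and 2 overlapped; for all genes tested those shares were 23.7% below and 48.9% above. Within the HFD libraries HFD 2 was the lowest for 9 of the 10 genes, Acaca being the exception. Within HFD+MGIG, HFD+MGIG 2 was the lowest for 6. Leaving out HFD 3 or HFD+MGIG 3 reduced the genes called lower to 4, and leaving out HFD 1 reduced them to 5. Scd1, Dgat2, Lipe and Mgll kept an adjusted p under 0.05 by edgeR, and stayed lower, with any 1 library left out, and Acaca stayed higher.

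Compared per kb of exon, Plin2 led in both groups, at 402 ± 145 CPM per kb in HFD+MGIG and 536 ± 41.6 CPM per kb in HFD (SD, n = 3 each). In HFD+MGIG Pnpla2 (60.9 ± 22.4) and Scd1 (55.5 ± 13.1 CPM per kb) came next and overlapped each other. In HFD Scd1 (259 ± 105) came before Pnpla2 (134 ± 21.5 CPM per kb), again with overlap. Mgll followed, at 13.4 ± 4.93 CPM per kb in HFD+MGIG and 40 ± 3.57 CPM per kb in HFD, and then Dgat1, Lipe, Dgat2 and Scd2 in both groups. From Mgll down to Acaca each gene overlapped its neighbour in HFD+MGIG, whereas in HFD only Dgat1 with Lipe and Lipe with Dgat2 did so below Pnpla2. The bottom pair changed places: Acaca had 2.18 ± 1.41 and Fasn 0.661 ± 0.268 CPM per kb in HFD+MGIG, and Acaca had 0.389 ± 0.0569 and Fasn 1.03 ± 0.231 CPM per kb in HFD.

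Expressed as shares of the 10 genes' summed counts per kb within each library, which need no scaling between libraries, the mixture held more Plin2 and less Scd1 in HFD+MGIG. Plin2 took 72.1% ± 2.29 in HFD+MGIG and 53.7% ± 7.01 in HFD, a difference of 18.3 percentage points. Scd1 took 8.69%, 12.6% and 9.96% in HFD+MGIG, against 29.2%, 16.7% and 28.9% in HFD, a difference of −14.5 points. Neither gene's shares overlapped between the groups. Pnpla2 took 10.9% ± 0.702 in HFD+MGIG and 13.3% ± 1.35 in HFD, and Mgll 2.44% ± 0.402 and 4% ± 0.355 (SD, n = 3 each). For these 4 and Acaca the exact permutation p was 0.1, the smallest possible, and 0.2 after adjustment over the 10 genes, so none passed. A share falls when another rises, so this shows unequal change and not which gene changed.

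**Figure D4:**
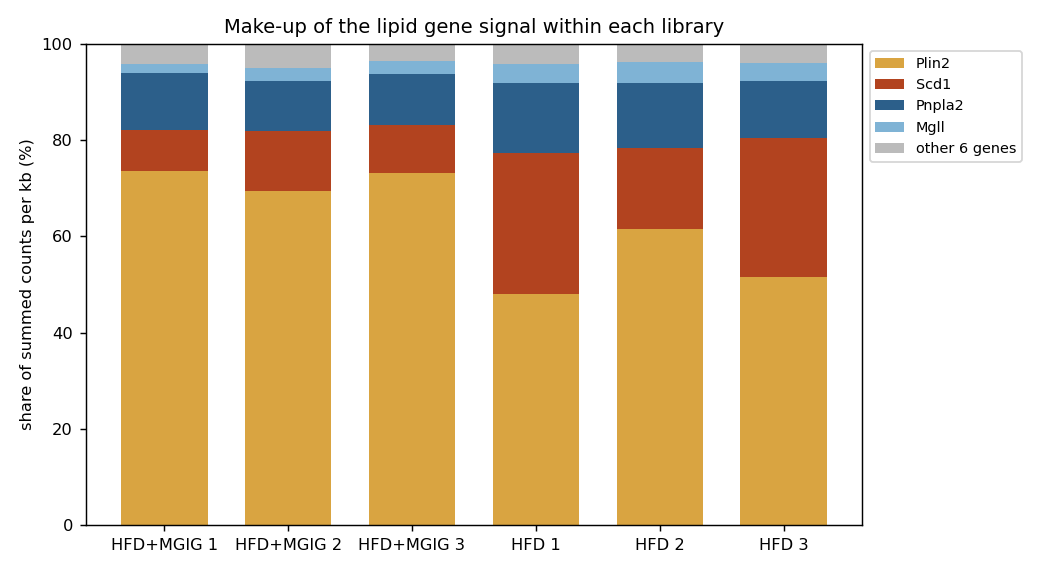
Share of each gene in the summed counts per kb of the 10 lipid genes (percent, stacked bars) in the 3 HFD+MGIG and 3 HFD libraries; the 6 least abundant genes are drawn together. Scd1 takes 8.69% to 12.6% in the HFD+MGIG libraries and 16.7% to 29.2% in the HFD libraries.

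The rest of the pathway was examined through 6 lists of other genes, of which 86 were tested: 44 were lower and 7 higher in HFD+MGIG in the fit across all genes, where 26.8% of protein-coding genes were lower and 21.0% higher. Of the 28 among background-limited genes, 1 was lower and 1 higher, beside 6.25% and 4.45% of that whole set. In synthesis, elongation and activation 11 of 20 tested genes were lower and 2 higher, with a median log2 fold change of −0.98. They included Srebf1, the transcription factor of lipogenesis (−1.53, adjusted p = 0.00207 by edgeR), Thrsp, a lipogenic cofactor (−1.30, adjusted p = 0.00362 by edgeR), and Me1, malic enzyme, which supplies NADPH (−1.17, adjusted p = 0.00503 by edgeR). Srebf1 had 10.7 ± 3.17 CPM in HFD+MGIG, under its mean bound of 36.1 CPM, and 25.9 ± 5.54 CPM in HFD.

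In glycerolipid synthesis 7 of 12 were lower and 0 higher (median −1.04), among them the acyltransferase genes Lclat1 (−2.24), Agpat4 (−1.05) and Agpat3 (−1.17); none of the 12 was background-limited. Among droplet coat and assembly genes 3 of 10 were lower and 0 higher (median −0.85). These were the adipocyte droplet genes Plin4 (−1.92), Cidec (−1.36) and Plin1 (−1.34), with adjusted p of 0.0023, 0.0137 and 0.036 by edgeR. Plin4 and Plin1 averaged 4.17 and 6.32 CPM in HFD+MGIG, and no library there exceeded their bounds, which averaged 37 and 29.8 CPM. The groups of Plin1 overlapped. Cidec was at −0.37 among background-limited genes and did not pass there (adjusted p = 0.481 by edgeR). Plin1 and Cidec are also on the adipocyte marker list. Plin3, a perilipin of most cells, had 58.5 ± 9.99 CPM in HFD+MGIG and 73.8 ± 4.47 CPM in HFD and did not pass (adjusted p = 0.104 by edgeR).

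Among lipolysis cofactors and other lipases 6 of 15 were lower and 1 higher (median −0.82). Prkaca, the catalytic subunit of protein kinase A, which phosphorylates hormone-sensitive lipase, was at −1.38 (adjusted p = 0.00479 by edgeR), and Aqp7, the glycerol channel of fat cells, at −1.84 (adjusted p = 0.00209 by edgeR). G0s2, the inhibitor of adipose triglyceride lipase, was at −0.99 (adjusted p = 0.0144 by edgeR) in the fit across all genes. In HFD+MGIG its bound averaged 5.58 CPM against a level of 19.8 CPM. It thus entered the background-limited set only through its HFD level, and its value there is not used. Abhd5, the co-activator of adipose triglyceride lipase, had 46 ± 7.4 CPM in HFD+MGIG and 57.7 ± 3.35 CPM in HFD (adjusted p = 0.0934 by edgeR). Lipa, the lysosomal lipase, had 194 ± 92.6 CPM in HFD+MGIG and 315 ± 36.5 CPM in HFD (adjusted p = 0.11 by edgeR), so neither passed.

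For uptake and binding 8 of 11 were lower and 1 higher (median −1.35). Cav1, caveolin 1, abundant in adipocytes and endothelium, was at −2.06 (adjusted p = 0.00394 by edgeR) and stayed lower among background-limited genes, at −1.11 (adjusted p = 0.00605 by edgeR). Cd36, the fatty acid translocase, had 2790.4 ± 1089 CPM in HFD+MGIG and 5439.7 ± 452 CPM in HFD and missed the threshold (adjusted p = 0.0795 by edgeR). Lpl, lipoprotein lipase, missed it too, with 464 ± 57.2 CPM in HFD+MGIG, 774 ± 143 CPM in HFD (adjusted p = 0.0627 by edgeR) and a log2 fold change of 0.00 among background-limited genes. In beta-oxidation 9 of 18 were lower and 3 higher (median −0.83), with Cpt2 (−1.18) and Acadvl (−1.31) among the lower, although exons of Acadvl overlap the opposite gene Dvl2 over 42.9% of their length. Eci2, an enoyl-CoA isomerase, had 163, 573 and 288 CPM in HFD+MGIG, against 69.9, 65.1 and 54.5 CPM in HFD. It was higher in the fit across all genes (2.04, adjusted p = 0.0019 by edgeR) and among background-limited genes (3.41, adjusted p = 0.0329 by edgeR). HFD+MGIG 2, with the largest share of silent-family counts, was the highest, as for Acaca. An antisense gene, Gm16984, overlaps 3.41% of the Eci2 exons. The part of the background in the Eci2 difference was not tested. The other genes called higher were scarce. Ppargc1a, a co-activator of mitochondrial genes, averaged 15.9 ± 10.3 CPM in HFD+MGIG and 0.954 ± 0.464 CPM in HFD, Ppara, a nuclear receptor for fatty acids, 2.86 ± 1.66 and 0.553 ± 0.264 CPM, and Faah, fatty acid amide hydrolase, 9.63 ± 5.83 and 2.05 ± 0.327 CPM, each below its bound in every HFD+MGIG library. Fabp3, a fatty acid binding protein of muscle, averaged 15.5 ± 13.7 CPM in HFD+MGIG and 2.16 ± 0.517 CPM in HFD, above its bound in each HFD+MGIG library.

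**Figure D5:**
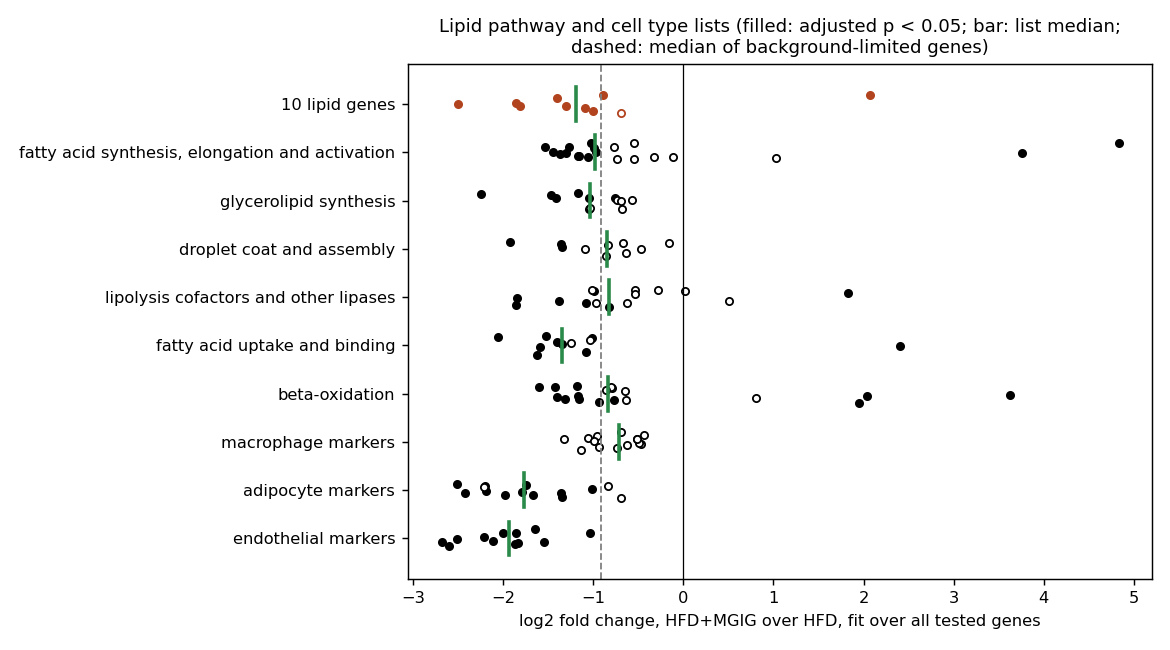
Log2 fold change, HFD+MGIG over HFD, of each tested gene in the fit across all genes, for the 10 lipid genes, the 6 pathway lists and 3 cell type lists; filled points have an adjusted p under 0.05, green bars are list medians and the dashed line is the median of the background-limited genes, −0.91. The pathway medians lie between −0.82 and −1.35, and the adipocyte and endothelial medians are −1.76 and −1.94.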

How the data were processed

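Per the labels' protocols, total RNA came from a TRIzol extraction, and a SMART-Seq v4 kit turned 10 ng of it into each library. The authors deposited estimated counts per gene (33.3% to 41.8% of detected genes fractional), which were rounded here. The submitters' processing notes name fastp, HISAT2, StringTie and mm10; the sources used here give no versions, counting program or strand setting. GENCODE M21 (mm10) supplied names, exon lengths and positions for 51884 of the 57180 IDs. CPM used library totals.

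The test was edgeR 4.0.16 in R 4.3.3 (quasi-likelihood, robust, TMM, filterByExpr, group the only term), with Benjamini-Hochberg adjustment over all genes tested and a threshold of 0.05. The SE was taken from the log2 fold change and its F statistic. The fit was tested on counts simulated for both groups from the HFD gene proportions. These held no added background in HFD+MGIG, so that test cannot show how background affects the calls. Single values were compared by exact permutation (scipy 1.17.1), two-sided. Alternatives included DESeq2 1.42.0 and limma 3.58.1 (voom). Besides the 10 genes, the text named up to 3 genes per direction from each list, by smallest p with at least 10 CPM, plus listed regulators and markers; it names some of these. Scd3, Scd4, Ppara and Faah were chosen after their values were seen. The genes, lists and background measures were chosen with earlier results of these data known. 0 sample columns were left unused. Protein sequences were not used here.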

Additional observations from a re-analysis of the deposited data

How the results depend on the processing

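The count of the 10 genes called lower, 8 by edgeR with TMM, was 5 with library totals, with a minimum of 5 CPM in 3 libraries, with protein-coding genes only and with the median background subtracted, 4 with its 90th percentile subtracted, 3 with macrophage marker scaling, and 4 to 8 with a library left out. Of the 4 lower with the 90th percentile subtracted, Scd1 was at −1.23 (adjusted p = 0.0296 by edgeR). The others, Scd2, Fasn and Dgat2, lay below the bound in every HFD+MGIG library. The subtraction set them to 0 there, so their calls were fixed in advance (log2 fold changes −10.36, −9.21 and −10.97). Fasn was likewise set to 0 with the median subtracted (−9.63). The count called higher, 1, was 0 with the median background subtracted. Acaca gave no value with the 90th percentile subtracted, since it was filtered out. Scd2 and Fasn turned to 0.0171 and 0.0488 (log2) with macrophage marker scaling, and Plin2 turned to 0.11 with the median and to 0.70 with the 90th percentile subtracted (adjusted p = 0.82 and 0.0161 by edgeR). Over all genes, 9902 higher of 23053 tested became 18271 of 44944 with no filter and 4581 of 14775 with the 5 CPM minimum. They became 4102 of 15395 with protein-coding genes only. With the median subtracted 4042 of 17262 were higher, and with the 90th percentile subtracted 1613 of 13577. With a library left out 9644 to 12355 were higher. The 4109 lower of 23053 tested became 2426 with library totals, 6873 with limma voom and 796 with macrophage marker scaling. They became 1572 of 14775 with the 5 CPM minimum and 1374 of 15395 with protein-coding genes only. With the median subtracted 1815 of 17262 were lower. With the 90th percentile subtracted 5936 of 13577 were lower, beside 4 of the 9 lipid genes tested there. With a library left out 2126 to 5559 were lower. Among background-limited genes, 116 higher became 186 with DESeq2, 38 and 226 with a bound of at most 0.1 and 0.5 of the mean, and 12 to 154 with a library left out. The 163 lower became 68 with a bound of at most 0.1 and 54 to 189 with a library left out, and the 2 lipid genes, of which Mgll entered through its HFD level, became 1 and 0 to 2. The differences in share of Scd1 and Plin2 kept their sign under each alternative run, at −18.6 to −12.4 and 15.5 to 22.2 points with a library left out, while those of Scd2, Fasn, Acaca and Dgat1, all small, changed sign in at least 1. Except where the alternative tests fewer genes or libraries, the cause was not tested. Same-numbered libraries correlated at 0.0784, 0.284 and 0.0705 across genes, and libraries with unlike numbers at −0.239 to 0.189. With 3 libraries per group these values cannot show whether the numbers pair the samples. With the replicate block 8 of the 10 genes were lower and 1 higher, with 4307 genes lower and 9832 higher. Depth and background both limit the HFD+MGIG values, and counts of 19 to 33 for Fasn cannot show small differences.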
